A study of Homo sapiens with 4 samples.

Results

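The comparison described here set MG cells against non-MG cells while both were exposed to 5-azacytidine, and it rested on 2 of the 4 arrays of the series, 1 for each subpopulation. HCT116 is an established line of human colorectal carcinoma cells. MG cells are the HCT116 cells that crossed the porous membrane of a migration chamber over repeated rounds of selection, and non-MG cells are those that stayed behind. Each subpopulation was then kept as its own culture, so each is a model of 1 selected culture of 1 line. On the treated arrays the cells had received 5 µM 5-azacytidine for 48 h, and on the other 2 arrays they had received vehicle for the same time. All samples shared the HCT116 background, and 400 ng of total RNA was labelled with Cy3 for every array. The question was which differences between the subpopulations were present while both were on the drug.

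5-azacytidine is a cytidine analogue that is built into nucleic acids and traps the DNA methyltransferases that copy methylation onto new DNA. Cells that divide in its presence therefore lose DNA methylation, and genes held silent by methylation can become expressed. Epithelial carcinoma cells that migrate often carry mesenchymal genes such as vimentin beside epithelial junction genes, a mixture described as a partial epithelial-mesenchymal transition (EMT).

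There was 1 array per condition, so no test between the subpopulations was possible and no p-value is given. Every difference is a ratio of 2 arrays. A level is the log2 of the background-corrected intensity minus the 75th percentile of its array, and a ratio is the level in MG cells minus that in non-MG cells. A gene was measured when a probe was well above background on both treated arrays, which held for 13052 genes. The spot error of a ratio was estimated from intensity and not measured on the gene's own spots. It used the median spread between repeated spots, within an array, of probes that were spotted many times. The median SD of these probes fell from 0.34 at log2 intensities between 1 and 3 to 0.05 above 10. A probe with 1 spot, such as that of VIM, has no spread of its own. The spot error does not contain the variation between cultures. All 4 arrays lay on 1 slide, with the cell types in different rows and the treatments in different columns, and position and these factors cannot be told apart. Of 11 colon epithelial markers, 7 were well above background on both treated arrays, among them EPCAM, KRT8, KRT18 and KRT19, whereas VIL1, CDH17, LGALS4 and CEACAM5 had no signal well above background under either treatment. In bulk RNA, fewer cells expressing a gene and less RNA per cell cannot be told apart.

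Under 5-azacytidine, 830 of the 13052 genes (6.36%) were higher in MG cells past 1.5-fold and 781 (5.98%) were lower, while 11441 were within 1.5-fold. Past 2-fold, 133 genes were higher and 123 lower. The median log2 ratio of all genes was 0.05, and the 5th and 95th percentiles were -0.63 and 0.63. The share of all genes with each sign is not given, so sign counts in the lists can be read only beside this median. Dim genes passed the threshold more often. Of 2825 genes with an intensity under 64 on the brighter treated array, 18.3% passed 1.5-fold, compared with 10.7% of the 10227 brighter genes. Most of the genes past 1.5-fold, 1357 of them, had 1 measured probe. Where a higher gene had 2 or more probes, the ratios of all of them were above 0 for 131 of 135 genes, and for lower genes they were all below 0 for 118 of 119. All probes were past 1.5-fold for 73 of the 135 and 56 of the 119. The split between higher and lower genes depended on scaling and background correction. The higher genes made up 51.5% of those past 1.5-fold, 91.1% when each array was scaled to its median, 83.3% with normexp background correction, 39.7% with no filter on background and 33.7% when the 75th percentile was taken over probes detected on all 4 arrays.

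**Figure D1:**
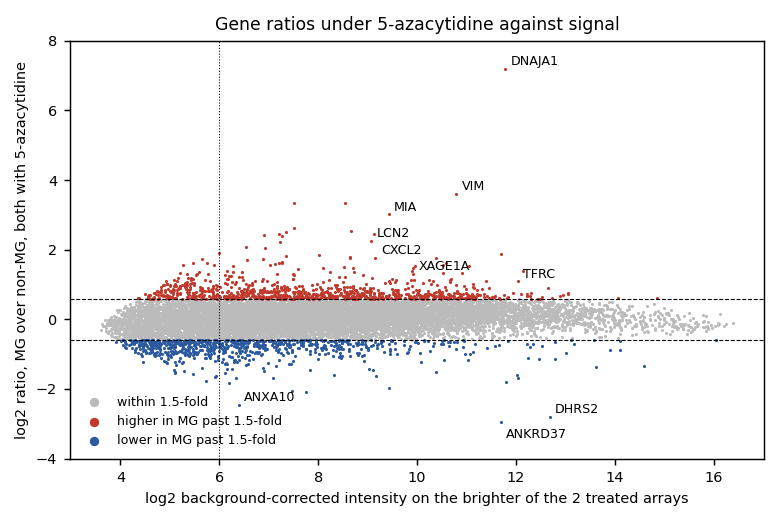
Each point is a gene measured on both treated arrays. The horizontal axis is the log2 background-corrected intensity on the brighter treated array and the vertical axis is the log2 ratio, MG over non-MG, under 5-azacytidine, from 1 array each. Dashed lines mark 1.5-fold, the dotted line marks an intensity of 64, red points are the 830 higher genes and blue points the 781 lower genes. The spread narrows as intensity rises, and DNAJA1 and VIM stand above the other genes.

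Mesenchymal genes were among those that stood highest in MG cells. VIM encodes vimentin, the intermediate filament of mesenchymal cells. The VIM level was 4.20 in MG cells and 0.60 in non-MG cells with 5-azacytidine, and 0.71 and -0.68 in the same cells with vehicle. The treated MG array was thus the highest of the 4 and the treated non-MG array lay next to the MG array with vehicle. VIM was read by 1 probe with 1 spot. The VIM ratio was 3.60 under the drug, a 12.1-fold difference (spot error 0.10), and 1.39 with vehicle, a comparison that used the other pair of arrays. The difference between these ratios was not tested.

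Of 37 mesenchymal and EMT genes, 19 were measured, 10 of them (52.6%) were higher in MG cells past 1.5-fold and none was lower, beside 6.36% and 5.98% of all genes. The median ratio of the 19 genes was 0.62, beside 0.05 over all genes. The list is not independent of these data. VIM, ZEB1, TGM2, DCLK1, ECM1 and MIA, all among the 10, were reported by the paper as higher in MG cells from this series. TWIST1 and LOXL2 were reported so too and were within 1.5-fold under the drug. MIA, a small secreted protein that loosens the contact of cells with the matrix, had levels of 2.83 in MG and -0.18 in non-MG cells under the drug and of 2.36 and -0.66 with vehicle. Its ratio was 3.02 in each comparison. The kinase DCLK1, a marker of tuft cells in the gut, had a ratio of 2.62 under the drug and 2.96 with vehicle. These came from 1 of its 4 probes, and the others were not well above background on either treated array. ZEB1, a repressor of epithelial genes, stood at 0.06 in MG and -0.99 in non-MG cells with 5-azacytidine, a ratio of 1.05 (spot error 0.17), and its vehicle ratio was 1.31. With normexp correction the ZEB1 ratio was 0.45, short of 1.5-fold. Other members past the threshold were the crosslinking enzyme TGM2 at 1.26, the matrix protein SPARC at 1.13, the ectonucleotidase NT5E at 0.79 and the receptor kinase AXL at 0.66. SNAI1, also a repressor of epithelial genes, had a ratio of -0.18, and TWIST1 had one of 0.25, both within 1.5-fold. CDH2 and TGFBI were well above background only in the treated MG cells, and for them the MG cells were at least 1.25-fold and at least 1.35-fold higher.

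Of 39 measured epithelial junction genes out of 40, 6 (15.4%) were lower in MG cells under the drug, beside 5.98% of all genes. A further 2 (5.13%) were higher, beside 6.36% of all genes, and 31 were within 1.5-fold. The median ratio was -0.20, with 28 of 39 ratios below 0. With vehicle 11 were lower and 1 was higher, beside 963 lower and 764 higher of the 12751 genes measured on all 4 arrays. The median under the drug was 0.05 when each array was scaled to its median, a scaling that moved the median of all genes from 0.05 to 0.31. CDH1, which encodes E-cadherin, had levels of 2.79 in MG and 3.28 in non-MG cells under the drug, a ratio of -0.49 (spot error 0.03) that was within 1.5-fold. Its vehicle ratio was -0.66 (spot error 0.03), which was past 1.5-fold. The tight junction genes TJP3 and CLDN4 had ratios of -1.17 and -0.90, and the epithelial transcription factors ELF3 and GRHL2 had ratios of -0.96 and -0.87. The factor OVOL2, known as a restraint on EMT, had the opposite sign with a ratio of 1.06, and so did the keratin KRT20 with 0.66. Integrins and laminins had 1 member higher (LAMA3, 0.77) and 1 lower (ITGA3, -0.65) of 24 measured. That was 4.17% in each direction, below the shares over all genes. Among 20 measured proteases of the matrix and their inhibitors, 2 (10%) were higher, MMP7 at 1.05 (spot error 0.31) and PLAU at 0.61. The 1 lower member, MMP25 at -0.71, made up 5%, near the share over all genes. The MMP25 ratio was 0.18 with no filter on background, which adds dim probes of the gene.

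**Figure D2:**
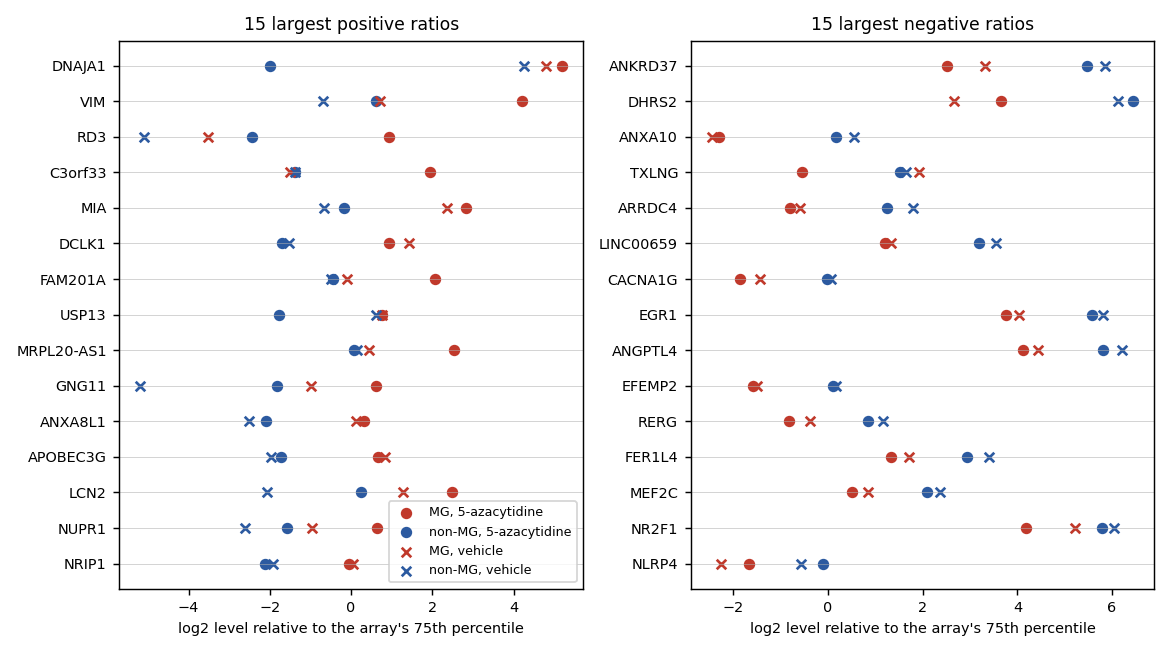
The horizontal axis is the log2 level relative to the 75th percentile of each array, for the 15 genes with the most positive ratio (left) and the 15 with the most negative ratio (right) of MG over non-MG cells under 5-azacytidine. Red marks are MG cells, blue marks are non-MG cells, circles are the treated arrays and crosses the vehicle arrays, with 1 array each. The VIM circle for MG cells lies to the right of the other 3 marks, and the DNAJA1 circle for non-MG cells lies far to the left of them.

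Chemokines that attract neutrophils were higher in MG cells under the drug. CXCL1, CXCL2, CXCL3 and CXCL8 encode ligands of the receptor CXCR2 and lie together in a cluster on chromosome 4, and CCL20 attracts cells carrying CCR6. Their transcription is a textbook response to the factor NF-kB. Their start regions are shown because the 4 CXC genes had ratios of one sign under the drug. They are the 250 bases before the RefSeq gene start (GRCh38.p14), on the strand of the gene, with the sequence GGAATTTCC in capitals. This sequence, a form of the NF-kB binding motif, was searched on both strands.
CXCL1: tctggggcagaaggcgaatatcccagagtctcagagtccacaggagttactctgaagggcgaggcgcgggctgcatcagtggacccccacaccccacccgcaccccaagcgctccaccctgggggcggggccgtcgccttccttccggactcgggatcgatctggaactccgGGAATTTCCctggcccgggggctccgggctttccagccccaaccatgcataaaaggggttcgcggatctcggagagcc
CXCL2: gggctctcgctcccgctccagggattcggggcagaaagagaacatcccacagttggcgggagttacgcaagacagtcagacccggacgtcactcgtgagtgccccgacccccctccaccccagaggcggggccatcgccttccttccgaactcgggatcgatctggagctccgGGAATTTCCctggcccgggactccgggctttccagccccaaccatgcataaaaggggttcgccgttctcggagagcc
CXCL3: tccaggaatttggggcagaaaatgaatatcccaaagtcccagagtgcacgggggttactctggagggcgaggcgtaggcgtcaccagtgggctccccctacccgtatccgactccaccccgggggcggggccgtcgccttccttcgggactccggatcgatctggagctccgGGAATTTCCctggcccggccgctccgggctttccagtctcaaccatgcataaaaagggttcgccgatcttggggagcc
CXCL8: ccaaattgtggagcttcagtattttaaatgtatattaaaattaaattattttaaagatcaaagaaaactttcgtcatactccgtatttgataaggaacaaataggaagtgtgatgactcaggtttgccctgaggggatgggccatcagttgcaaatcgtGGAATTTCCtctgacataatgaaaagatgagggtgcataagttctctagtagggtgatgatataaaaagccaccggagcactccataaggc
These windows were chr4:73869143-73869392 (+) for CXCL1, chr4:74099196-74099445 (-) for CXCL2, chr4:74038690-74038939 (-) for CXCL3 and chr4:73740319-73740568 (+) for CXCL8. The match began 78 bases before the start in CXCL1 and CXCL3, 77 in CXCL2 and 91 in CXCL8. It was present in 117 of 27305 windows of this length (0.428%). CXCL1, CXCL2 and CXCL3 are close copies of each other, so their windows are not independent. Of the 16 measured members of the NF-kB list with a window in the table, 7 held the sequence, 5 of them among the 9 members higher past 1.5-fold and 2 among the other 7. The windows of CCL20 and LCN2, which were also higher past 1.5-fold, did not hold this exact sequence and are not shown. Other forms of the NF-kB motif were not searched, so these windows are not shown to lack one. A match is a description of the letters and not a binding site shown by these data.

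CXCL1 had levels of 4.09 in MG and 2.93 in non-MG cells under 5-azacytidine, and of -0.44 and -0.67 with vehicle. CXCL2 had levels of 2.57 and 0.80 under the drug and of -2.04 and -1.89 with vehicle. For both genes the treated arrays lay above the vehicle arrays in both cell types. By the averages over probes, the cell types were apart on the treated arrays and close on the vehicle arrays. The CXCL1 ratio was 1.16 under the drug (spot error 0.06) and 0.23 with vehicle, and its 2 probes had drug ratios of 1.02 and 1.30. The same probes differed with vehicle, at -0.17 and 0.63, the latter past 1.5-fold, so the small vehicle ratio of CXCL1 is an average of unlike probes. The CXCL2 ratio was 1.77 (spot error 0.07), a 3.41-fold difference, compared with -0.14 with vehicle. CXCL8 and CCL20 were not well above background on either vehicle array, and CXCL3 was so in non-MG cells alone. Under the drug the ratios of CXCL3, CXCL8 and CCL20 were 1.74, 1.56 and 1.61, the CXCL8 ratio with a spot error of 0.35. With normexp correction, which lowers the ratios of dim probes, CXCL3 had a ratio of 0.92 and CCL20 one of 0.78. Because the CXC genes resemble each other, cross-hybridization between their probes was not tested.

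In the whole list of NF-kB targets, chemokines and epithelial defence genes, 23 of 40 members were measured, and 10 were higher in MG cells under the drug and none lower, beside 6.36% of all genes higher. The median ratio was 0.55. Among the 17 members measured on all 4 arrays, 2 were higher and 2 lower with vehicle, beside 764 and 963 of 12751 genes. The median of the 17 was 0.55 under the drug and -0.10 with vehicle. LCN2 encodes lipocalin-2, which binds bacterial siderophores. Its levels were 2.49 in MG and 0.23 in non-MG cells with the drug and 1.27 and -2.07 with vehicle, so it was higher in MG cells in both comparisons, with ratios of 2.25 and 3.34. The other members past 1.5-fold were the antiprotease SLPI at 0.99, TNFAIP2 at 0.89, the NF-kB subunit NFKB1 at 0.66 and the NF-kB inhibitor TNFAIP3 at 0.63. The inhibitor NFKBIA, at 0.55, and the apoptosis inhibitor BIRC3, at 0.55, were short of 1.5-fold, and NFKB2 was at -0.03. A further 6 members, CSF2, CXCL5, SAA1, TNF, ICAM1 and LTB, were well above background only in the treated MG cells. The bound was at least 4.19-fold for the cytokine CSF2 and at least 3.67-fold for CXCL5, and no member was above background only in the treated non-MG cells.

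**Figure D3:**
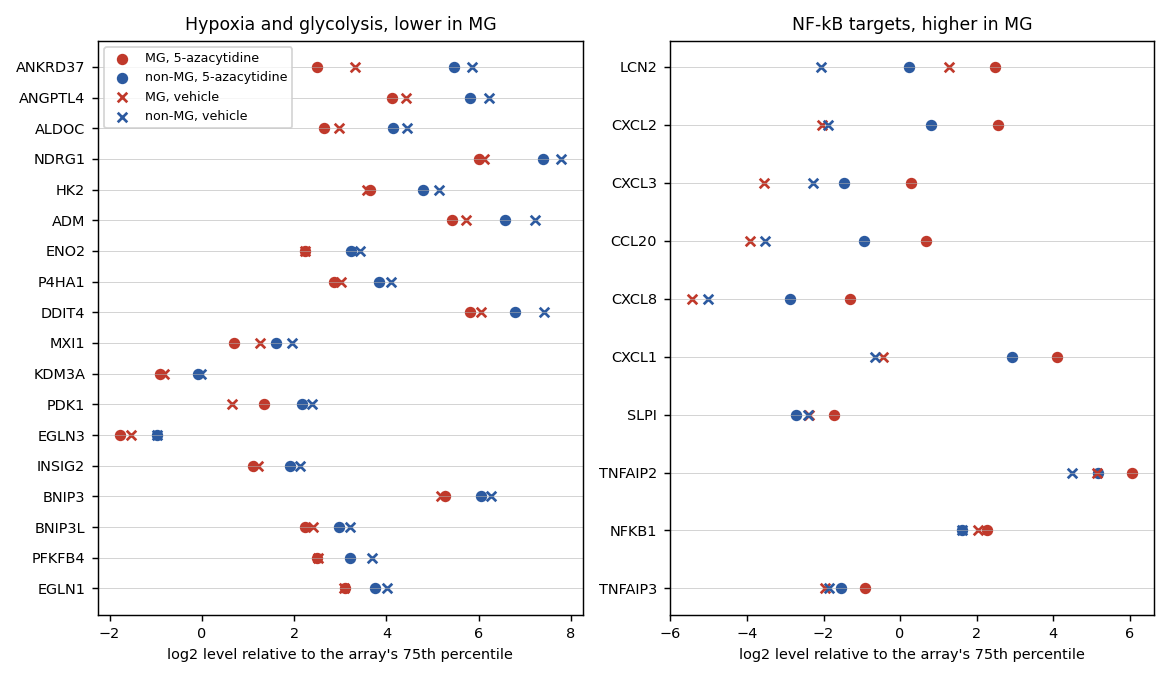
The horizontal axis is the log2 level relative to the 75th percentile of each array, for the 18 hypoxia and glycolysis genes lower in MG cells past 1.5-fold under 5-azacytidine (left) and the 10 NF-kB list members higher past it (right). Red marks are MG cells, blue marks non-MG cells, circles are the treated arrays and crosses the vehicle arrays, with 1 array each. In the left panel the red marks lie left of the blue marks with and without the drug. In the right panel the circles of CXCL1, CXCL2, CXCL3, CXCL8 and CCL20 lie to the right of their crosses.

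Genes of the response to low oxygen and of glycolysis were lower in MG cells on the drug. The hypoxia-inducible factors switch these genes on, and they bind a core motif, ACGTG or GCGTG. Of 39 genes, 36 were measured, 18 were lower past 1.5-fold and none was higher, beside 5.98% of all genes lower, and the median ratio was -0.59. Under the scaling to array medians 10 members were lower past 1.5-fold, and the list median was -0.33. With vehicle, 22 of the 36 were lower, beside 963 of 12751 genes, and the median was -0.71. The direction was thus the same in the pair of arrays that the drug comparison did not use. ANKRD37, a target of hypoxia-inducible factor, had the most negative ratio among the named genes. Its levels were 2.50 in MG and 5.46 in non-MG cells under the drug and 3.31 and 5.85 with vehicle, and its ratio was -2.96 (spot error 0.08), a 7.77-fold difference. The lipase inhibitor ANGPTL4 had levels of 4.12 and 5.81 with the drug, a ratio of -1.69, and the glycolytic enzyme ALDOC was 2.83-fold lower. NDRG1, a stress-induced gene, had a ratio of -1.38 and a level of 7.39 in treated non-MG cells. The hexokinase HK2, the peptide hormone ADM and the enolase ENO2 had ratios of -1.16, -1.13 and -0.99. The carbonic anhydrase CA9 was well above background in the treated non-MG cells and not in the treated MG cells, in which it was at least 1.96-fold lower.

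The start regions of ANKRD37, the gene with the most negative ratio of this list, and of ALDOC and HK2, which held several copies of the core motif, are given in the same form. Matches of ACGTG and GCGTG on either strand are in capitals. A match on one strand can overlap one on the other strand, and overlapping matches were counted separately.
ANKRD37: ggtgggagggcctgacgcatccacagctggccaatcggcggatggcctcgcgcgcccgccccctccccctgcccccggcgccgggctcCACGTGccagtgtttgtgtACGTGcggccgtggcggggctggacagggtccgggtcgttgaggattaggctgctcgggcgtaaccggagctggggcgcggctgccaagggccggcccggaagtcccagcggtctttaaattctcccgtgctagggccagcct
ALDOC: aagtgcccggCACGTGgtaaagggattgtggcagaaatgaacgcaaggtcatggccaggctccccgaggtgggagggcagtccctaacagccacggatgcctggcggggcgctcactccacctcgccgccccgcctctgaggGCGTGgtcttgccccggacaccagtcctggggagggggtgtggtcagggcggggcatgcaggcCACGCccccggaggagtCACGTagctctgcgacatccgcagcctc
HK2: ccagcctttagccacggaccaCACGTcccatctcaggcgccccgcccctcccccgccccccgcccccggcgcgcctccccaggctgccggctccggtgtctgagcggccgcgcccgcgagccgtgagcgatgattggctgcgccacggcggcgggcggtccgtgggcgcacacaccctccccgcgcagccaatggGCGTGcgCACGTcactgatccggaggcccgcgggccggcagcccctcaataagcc
These windows were chr4:185396591-185396840 (+) for ANKRD37, chr17:28576896-28577145 (-) for ALDOC and chr2:74833877-74834126 (+) for HK2, and they held 3, 5 and 3 matches. The motif is short and common. It was in 43.1% of all windows and in 57.3% of those of measured genes, and 22 of 32 measured hypoxia genes with a window held it. These were 13 of 16 genes lower past 1.5-fold and 9 of the other 16. The window of EGLN3, which was also lower, held none.

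Of 48 DNA replication genes, all measured under the drug, 14 (29.2%) were higher in MG cells past 1.5-fold, beside 6.36% of all genes, and none was lower. The other 34 were within 1.5-fold, and the median ratio was 0.50 with 47 of 48 ratios above 0. The number higher was 38 with arrays scaled to their median and 9 when the 75th percentile was taken over probes detected on all 4 arrays, and none passed 2-fold. With vehicle, 29 were higher and 1 was lower, beside 764 and 963 of the 12751 genes measured on all 4 arrays. The vehicle median of the list was 0.67. ORC6, a part of the origin recognition complex, had the ratio of 0.99, with levels of 1.74 in MG and 0.75 in non-MG cells. CDC6, which loads the replicative helicase, had a ratio of 0.98 (spot error 0.31), the ribonucleotide reductase subunit RRM2 one of 0.87, and GINS3 one of 0.80. Of 43 measured mitosis genes 9 (20.9%) were higher, led by the kinetochore motor CENPE at 1.36 and the centromere protein CENPF at 0.89, and the median was 0.45. The 54 measured core and linker histone genes differed less under the drug than with vehicle by their medians. Under the drug 2 of 54 were higher and the median was 0.14. With vehicle 32 of the 52 measured on all 4 arrays were higher, beside 764 of 12751 genes, and the median was 0.67. The median histone level on the 4 arrays was 3.33 in treated MG, 3.23 in treated non-MG, 3.55 in vehicle MG and 2.93 in vehicle non-MG cells, so that the treated arrays lay between the vehicle arrays. The change of the ratio between drug and vehicle was not tested. Histone genes are near copies of each other and their probes can share targets.

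**Figure D4:**
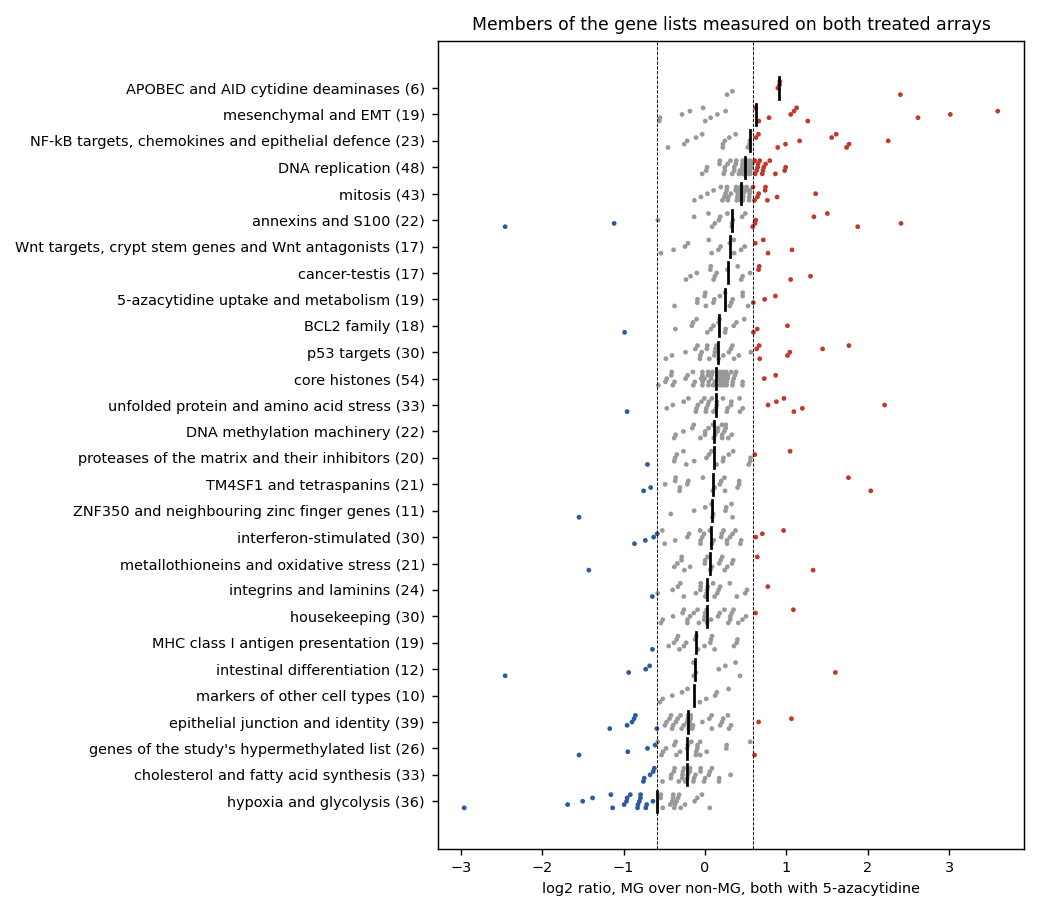
Each point is a gene of the list named at the left, with the number of measured members in parentheses, and the horizontal axis is its log2 ratio, MG over non-MG, under 5-azacytidine, from 1 array each. Black bars are list medians, dashed lines mark 1.5-fold, and red and blue points are past it. Hypoxia and glycolysis genes lie furthest to the left with a median of -0.59, and the medians of APOBEC, mesenchymal and NF-kB genes lie furthest to the right.

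Cytidine deaminases of the APOBEC3 family, which edit viral and cellular DNA, were higher in MG cells under the drug in 4 of 6 measured members, with a median ratio of 0.91, where 6.36% of all genes were higher and 5.98% lower. APOBEC3G had levels of 0.67 in MG and -1.73 in non-MG cells, a ratio of 2.40 compared with 2.83 for vehicle. APOBEC3B and APOBEC3C each had a ratio of 0.92 and APOBEC3F one of 0.90, and these genes are near copies whose probes may share targets. Of 22 measured annexins and S100 calcium-binding proteins, 7 (31.8%) were higher and 2 (9.09%) lower. ANXA3 had levels of 5.10 and 3.22 and a ratio of 1.88 (spot error 0.03), ANXA8L1 had a ratio of 2.41 and S100A2 one of 1.34, and S100A3 was 2.84-fold higher. ANXA8L1 has a nearly identical copy in ANXA8, so the source of its signal is uncertain. ANXA10 and ANXA9 were lower, at -2.45 and -1.12. The ANXA10 level was -2.29 in MG and 0.16 in non-MG cells with the drug, and -2.45 and 0.56 with vehicle. Of 21 measured tetraspanins and TM4SF proteins, TM4SF1 at 2.04 and TM4SF18 at 1.76 were higher, and TSPAN1 at -0.75 and TSPAN12 at -0.67 were lower, 9.52% of the measured members in each direction. TM4SF19 and TSPAN8 were well above background only in the treated MG cells, at least 1.65-fold and 1.55-fold higher. TSPAN2 was so only in the treated non-MG cells, at least 1.25-fold higher.

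The lists of cell death, stress and lipid genes are likewise set beside the 6.36% of all genes higher and 5.98% lower. Of 30 measured p53 targets, 7 (23.3%) were higher and none lower, with a median ratio of 0.16. The kinase PLK2 had a ratio of 1.77 in each comparison, and the death receptor FAS had levels of 0.99 in MG and -0.45 in non-MG cells under the drug, a ratio of 1.45 compared with 0.77 for vehicle. BAX, which permeabilizes mitochondria, had a ratio of 1.01 with the drug and 0.29 with vehicle. Within the 18 measured BCL2 family genes, BAX, BIK at 0.64 and BAK1 at 0.60 were higher and BMF at -0.99 was lower. Unfolded protein and amino acid stress genes had 6 members (18.2%) higher and 1 lower of 33 measured. These included the stress factor NUPR1 at 2.21, the cystine transporter SLC7A11, which was 2.29-fold higher, and the serine synthesis enzyme PSAT1 at 1.09, and DDIT4 was the lower member at -0.96. EDEM1 was well above background only in the treated non-MG cells, in which it was at least 2.27-fold higher. Of 21 metallothionein and oxidative stress genes, AKR1B10 at 1.33 and KEAP1 at 0.64 were higher and AKR1C3 at -1.43 was lower. Cholesterol and fatty acid synthesis genes had 5 lower (15.2%) and 0 higher members of 33, with INSIG1 at -0.76 and STARD4 at -0.75, and a median of -0.22 that was 0.04 under scaling to array medians.

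Genes linked to the drug itself varied by list, to be read beside the 6.36% of all genes higher and 5.98% lower. Of 22 measured genes of the DNA methylation machinery none passed 1.5-fold, and DNMT1, the maintenance methyltransferase that 5-azacytidine traps, had levels of 2.98 in MG and 2.77 in non-MG cells and a ratio of 0.21 (spot error 0.09). Among 19 measured genes of 5-azacytidine uptake and metabolism, RRM2, CTPS1 at 0.73 and the nucleoside transporter SLC29A1 at 0.59 were higher (15.8%) and none was lower. Cancer-testis genes, which are silent by methylation in most tissues, had 17 of 40 members measured, of which 4 (23.5%) were higher and none lower, with a median of 0.28. XAGE1A had levels of 3.33 and 2.04 in the treated cells and was not detected above background in the vehicle samples, and its ratio was 1.30 (spot error 0.09). MAGEA8, at 1.05, and CTAG2, at 0.67, had no vehicle ratio, since a vehicle array was too dim, and MAGEA12 was at 0.66. Several of these genes have close copies, so single members are uncertain. For interferon-stimulated genes, 3 of 30 were higher and 4 lower (13.3%) with a median of 0.07. DDX60 at 0.97, IFI35 at 0.71 and IFIT3 at 0.62 were higher, IFITM1 at -0.87, BST2 at -0.73, IFITM3 at -0.63 and STAT2 at -0.59 were lower, and DDX60 and IFIT3 had spot errors of 0.34 and 0.33. SAMD9 and OAS1 were well above background only in the treated MG cells, at least 1.61-fold and 1.01-fold higher. Of 19 genes for MHC class I antigen presentation, HLA-C at -0.64 was lower (5.26%) and none was higher.

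The study's list of genes hypermethylated in MG cells was chosen in part on these samples. Its genes were lower in MG than in non-MG cells with vehicle, and 5-azacytidine raised them in MG cells. They also had hyper-methylated sites in MG cells on a separate methylation array. The expression part of the choice used both MG arrays and the non-MG vehicle array. The list is therefore not independent evidence of a direction, and its selection bears on the ratios with and without the drug. Of its 35 members 26 were measured on both treated arrays. In MG cells 4 (15.4%) were lower, beside 5.98% of all genes, 1 (3.85%) was higher, beside 6.36%, and 21 were within 1.5-fold. The median ratio of the 14 members measured on all 4 arrays was -0.16 under the drug and -0.72 with vehicle. With vehicle 9 of the 14 were lower, beside 963 of 12751 genes. ZNF350, a zinc finger repressor, had a ratio of -1.55 (spot error 0.31) at a low level in both cell types, -2.68 in MG and -1.13 in non-MG cells, and -0.61 with normexp correction. Its intensity was 15.1 in MG and 34.3 in non-MG cells under the drug, and 2.60 and 31.5 with vehicle. In MG cells with vehicle it was not well above background, so ZNF350 has no vehicle ratio. ZNF350 was the 1 lower gene (9.09%) among 11 measured members of the list of ZNF350 and its neighbouring zinc finger genes, beside 5.98% of all genes. Among these neighbours ZNF480 was well above background only in the treated MG cells, at least 2.32-fold higher. ZNF808 was so only in the treated non-MG cells, at least 1.51-fold higher. In the study's list SGPP2 and BEX5 had ratios of -0.95 and -0.61, and OTP was higher at 0.61. IGFBP7, a secreted binding protein, was well above background only in the treated non-MG cells, in which it was at least 5.24-fold higher. COL20A1 and GPR37L1 were also so only in the treated non-MG cells. LTB, OAS1 and IRAG2, listed as LRMP by the study, were so only in the treated MG cells. The bounds of these other members were within 1.5-fold.

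Wnt targets and crypt genes had 4 of 17 measured members (23.5%) higher, beside 6.36% of all genes, and none lower, with SP5 at 1.07, AXIN2 at 0.77, WNT3A at 0.72 and NKD1 at 0.62. Of 12 measured intestinal differentiation genes, 4 (33.3%) were lower, beside 5.98% of all genes, and 1 (8.33%) was higher. The adhesion molecule CEACAM1 was the higher gene at 1.60, and the mucin MUC2 was among the lower genes at -0.94. SPINK1 and TSPAN8 were well above background only in the treated MG cells, at least 1.80-fold and 1.55-fold higher. GPA33 was so only in the treated non-MG cells, at least 1.19-fold higher. Of 30 housekeeping genes, TFRC, the transferrin receptor, at 1.09 and TUBB at 0.62 were higher, a share of 6.67% that is near the share over all genes, and none was lower. Their median was 0.02. Markers of other cell types had 10 of 32 members measured, none past 1.5-fold. Between 8 and 11 of the 32 were well above background on each array, and their summed intensity was 1051 in treated MG and 844 in treated non-MG cells.

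Some of the leading ratios came from a gene that stood apart on 1 array. DNAJA1, a co-chaperone of HSP70, had the ratio of 7.20, the most positive of all. Its intensity was 18.7 in treated non-MG cells and between 1663 and 3521 on the other 3 arrays, from 1 spot. USP13, a deubiquitinase, was likewise low on the treated non-MG array alone, and TXLNG, with a ratio of -2.09, was low on the treated MG array alone. C3orf33 stood high on the treated MG array alone, with a level of 1.94 compared with -1.39 in treated non-MG cells, and a ratio of 3.33. Each of these 4 genes had 1 measured probe.

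FAM201A and MRPL20-AS1, which are noncoding RNAs, also stood high on the treated MG array alone. Their ratios were 2.53 and 2.46 under the drug, and 0.39 and 0.32 with vehicle, within 1.5-fold. RD3 had a ratio of 3.35 and was well above background on the treated arrays alone, so it has no vehicle ratio. GNG11, a G protein subunit, had a ratio of 2.45, and it was not well above background in non-MG cells with vehicle. NRIP1, a corepressor of nuclear receptors, had a ratio of 2.07 from 2 probes. On the low side DHRS2, a short-chain dehydrogenase, had levels of 3.65 in MG and 6.45 in non-MG cells on the drug and of 2.66 and 6.12 with vehicle. The DHRS2 ratio was -2.80 (spot error 0.08), a 6.95-fold difference. The noncoding RNA LINC00659 had a ratio of -1.98, and its 5 probes ranged from -2.21 to -1.79. EGR1, an immediate early transcription factor, had levels of 3.76 and 5.57 and a ratio of -1.81, while the arrestin-like ARRDC4 was at -2.06, the calcium channel CACNA1G at -1.82, RERG at -1.68, EFEMP2 at -1.69 and NLRP4 at -1.56. FER1L4 was at -1.62 from 1 probe, or 0.93 with no filter on background. That setting adds a probe of the opposite direction, with intensities of 33.6 in treated MG and 2.35 in treated non-MG cells. The added probe was well above background in the treated MG cells alone, so the direction of FER1L4 is uncertain. The transcription factors MEF2C and NR2F1 each had a ratio of -1.60.

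Some genes were well above background on 1 treated array alone. In MG cells there were 406 such genes, 172 of them with a bound past 1.5-fold, and in non-MG cells 497, of them 210 past it. In MG cells LINC01559 was at least 16.6-fold higher, the secreted protein gene MUCL1 at least 13.7-fold, SH3GL1P2 at least 7.31-fold, and SNORD127 had an intensity of 141 compared with 7.17. None of these was above background on a vehicle array. ZBED2, at least 7.76-fold higher, and the growth factor PTN, at least 6.26-fold higher, were well above background in MG cells with vehicle too.

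The ratio under the drug was set beside the ratio with vehicle, which used no array in common with it. Over the 12751 genes measured on all 4 arrays, the ratios had a Pearson r of 0.74 and a Spearman rho of 0.75. This correlation is across genes, which are not independent replicates, and all arrays shared a slide. With vehicle, 764 of all 12751 genes were higher past 1.5-fold and 963 were lower. Of 780 genes higher under the drug, 372 (47.7%) were higher with vehicle past 1.5-fold, and they made up 48.7% of the 764 genes higher with vehicle. Of 757 lower genes, 432 (57.1%) were lower with vehicle, or 44.9% of the 963 genes lower with vehicle. The sign alone was shared by 728 of the 780 and 722 of the 757. The share of all genes with each sign is not given here, so these sign counts have nothing to be read beside.

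**Figure D5:**
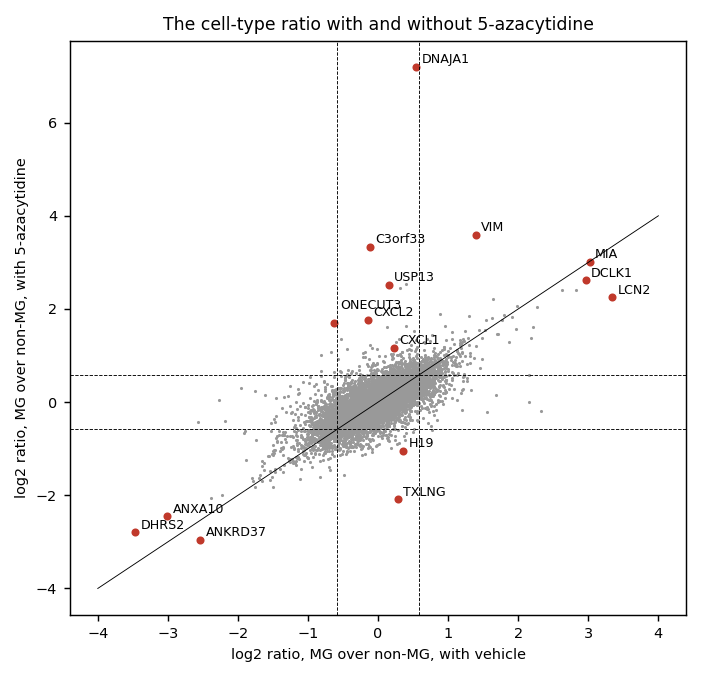
Each grey point is a gene measured on all 4 arrays, with the vehicle log2 ratio of MG over non-MG on the horizontal axis and that with 5-azacytidine on the vertical axis, from 1 array per condition. Dashed lines mark 1.5-fold and the solid line equal ratios, and red points are the labelled genes. MIA lies on the line, DHRS2 and ANXA10 lie above it at the lower left, VIM, CXCL1 and CXCL2 lie above it too, and H19 and TXLNG lie below it.

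A smaller set passed 1.5-fold under the drug and was within 1.2-fold with vehicle, 106 genes higher and 95 lower. Conversely, 102 genes higher and 189 lower with vehicle were within 1.2-fold under the drug. Whether any gene differed between the comparisons was not tested. The higher set held C3orf33, USP13 and the CXC chemokine CXCL2, which are described above. By the rule for named genes, which also takes opposite vehicle ratios and those within 1.2-fold, the transcription factor ONECUT3 had a ratio of 1.70 with a vehicle ratio of -0.62, MROH8 had 1.34, SH3PXD2A-AS1 had 1.28 and YIPF4 had 1.22. H19, an imprinted noncoding RNA, was lower in MG cells. Its levels were 1.17 in MG and 2.21 in non-MG cells under the drug and -1.56 and -1.92 with vehicle, so that both treated arrays lay above both vehicle arrays. The H19 ratio was -1.05 (spot error 0.07), both probes giving -1.05, compared with 0.36 for vehicle. SNORD3B-1 had a ratio of -1.13, and RNU2-1 had levels of 2.35 in MG and 3.35 in non-MG cells under the drug. Both are small noncoding RNAs with close copies. SUDS3, a part of the Sin3 deacetylase complex, had a level of 1.18 in treated MG cells and of 2.22 to 2.30 on the other arrays, a ratio of -1.07. PTPN9 was at -0.90 and PRR15 at -0.82. The Polycomb ligase RNF2 was at -0.89, but its 2 probes gave -1.55 and -0.23.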

How the data were processed

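Total RNA of each condition was labelled with Cy3 and hybridized to 1 one-colour Agilent array. RNA was extracted with RNAiso Plus per the labels and with an RNeasy kit per the methods. The authors deposited Feature Extraction 11.5.1.1 output, a background-corrected intensity for each spot, linear and not normalized between arrays, with flags. A second deposited table holds their log2 values, centred on each probe's median over the 4 arrays, made in GeneSpring after filters on low values and flags. Its array differences matched those of log2 intensity within 0.01 apart from a constant for 100% of 24161 probes, so its columns were used as an alternative.

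Control and outlier spots were left out, and the 75th percentile of each array was subtracted from its log2 intensity. The 75th percentile lay between 75.2 and 98.7, between 21382 and 21881 of 50594 probes were well above background on an array, and no spot was saturated. Probes were named by accession through RefSeq GRCh38.p14, which matched 17021 of the 20380 probes well above background on both treated arrays (83.5%), and were averaged per gene. Where a gene was above background on 1 treated array alone, the fold is a bound, from the higher of the dim probe's own signal and the lowest signal well above background on that array. Named genes were the 15 most positive and 15 most negative ratios at an intensity of at least 64, the 6 largest bounds, up to 8 genes in each direction past 1.5-fold under the drug and within 1.2-fold or opposite with vehicle, up to 4 members per list and direction, and CDH1, VIM, ZEB1, SNAI1, ZNF350, DNMT1, LCN2 and DHRS2. Other members of the lists, and IGFBP7, were named after their values were seen. The comparison, the 28 gene lists and the rule were chosen with earlier results of these data known. The array count limits the precision, and the spot error comes from probes with 8 or more spots. The counting was tested on simulated data. Python 3.11.15, numpy 2.4.6, pandas 2.3.3, matplotlib 3.10.9, R 4.3.3 and limma 3.58.1 were used.

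The alternatives were normexp background correction (offset 50, on the median spot intensity), quantile normalization, scaling to the array median or to the 75th percentile of probes detected on all 4 arrays, other filters on dim probes, the brightest probe, probes in place of genes, unmatched features, outlier spots kept, the authors' values and a 2-fold threshold.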

Additional observations from a re-analysis of the deposited data

Results flagged for a closer look

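Among genes measured on all 4 arrays, 6 passed 1.5-fold in one direction under 5-azacytidine and in the opposite direction with vehicle. The difference between the 2 comparisons was not tested, since each condition has 1 array. The log2 ratio (MG over non-MG) was 1.02 under the drug and -0.82 with vehicle for ANO5, a membrane protein of the anoctamin family. For the transcription factor ONECUT3 it was 1.70 and -0.62. The peroxisome gene PEX26 had ratios of 1.07 and -0.68, SAP25 of 0.66 and -0.81, and the zinc finger gene ZNF697 of 0.65 and -0.63. The small nucleolar RNA SNORA20 had the reverse signs, -0.60 under the drug and 0.78 with vehicle.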

How the results depend on the processing

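Of 830 higher and 781 lower genes, the counts were 683 and 137 with normexp correction, 2740 and 268 with arrays scaled to their median, 538 and 1060 with the 75th percentile over probes detected on all 4 arrays, 1760 and 2668 with no filter on background, 676 and 467 at an intensity of at least 64, 966 and 1187 with unmatched features included, and 133 and 123 past 2-fold. DNA replication genes higher numbered 14, and 38 with median scaling, 9 with the percentile over probes detected on all 4 arrays and 0 past 2-fold. Hypoxia and glycolysis genes lower numbered 18, and 10 with median scaling and 6 past 2-fold. NF-kB list members higher numbered 10, and 6 past 2-fold. The other 64 values of these counts and of the mesenchymal count were within 1.5 times the reported value. FER1L4 had a log2 ratio of 0.93 and MMP25 one of 0.18 with no filter on background, both against the reported sign. Among the remaining values over lists and named genes, 2209 moved little and 504 moved further without a change of sign. Of 127 named genes past 1.5-fold, 86 were still past it with normexp correction, 111 with median scaling and 118 with quantile normalization. Median scaling shifts all ratios up by a constant, and normexp with an offset shrinks the ratios of dim probes. For the other settings the cause was not tested. The planned slide block was not run, since the arrays share 1 slide. No paired analysis was possible because each condition has 1 array. Ratios of probes near background are the least precise.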
